A study of Sus scrofa with 24 samples.

Results

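Toll-like receptors are the membrane receptors with which cells recognise conserved microbial molecules. The pig genes TLR1, TLR2, TLR3, TLR4, TLR5 and TLR6 were examined here in cultured bronchial epithelium, the surface lining of the larger airways. The genes were chosen by symbol, as the rows of the deposited table whose pig gene identifier carries the symbol of TLR1 to TLR6. All 6 had a row among 25880 pig genes, and all 6 passed the filter on low counts that left 14172 genes for testing.

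RNA was sequenced from bronchial epithelial cells of wild-type pigs aged 1 month, cultured on membranes with their upper side exposed to air, a format in which airway cells differentiate. The 6 groups of 4 libraries were SB203580 plus flagellin, flagellin, and PBS, each at 24 h and at 2 h. SB203580, which inhibits p38 MAP kinases, was given at 20 µM for 1 h before flagellin, the protein of the bacterial flagellum, was added at 100 ng/ml. The flagellin and PBS groups had instead been preincubated for 1 h with the solvent DMSO. No group received SB203580 without flagellin among the samples used here, and the labels do not say how many pigs were used or whether cells of several pigs were pooled.

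TLR5 is the receptor of flagellin. TLR2 recognises bacterial lipoproteins as a pair with TLR1 or TLR6, TLR4 recognises lipopolysaccharide together with the carrier proteins CD14 and LY96, and TLR3 recognises double-stranded RNA inside endosomes. All of them except TLR3 signal through the adaptor MYD88, which leads through IRAK kinases and TRAF6 to NF-kB and the MAP kinases. TLR3 uses the adaptor TICAM1, which TLR4 uses as well. Airway epithelium is a known site of flagellin sensing through TLR5.

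The 24 libraries held 26345945 to 36267289 counts of pig genes each (median 32494269.5), and 3 counts, the upper limit for a gene with none observed, corresponded to 0.0827 to 0.114 CPM, that is, counts scaled to library size. Libraries numbered 3 and 4 stood apart from libraries numbered 1 and 2 in every group: the 12 libraries of replicates 3 and 4 held 0 counts of KDM5D, a gene of chromosome Y, against 118 to 184 counts in the 12 of replicates 1 and 2. Different animals thus gave the 2 sets, and sex, animal and any batch of these sets cannot be told apart. KDM5D was chosen after its values were seen. Of 7 markers of epithelium, 6 had a row and all 6 were tested, with a summed level of 3820 to 6219 CPM. Of 12 markers of macrophages and monocytes, cells rich in Toll-like receptors, 5 passed the filter. The summed level of all 12 was 25.2 to 151 CPM, the highest values coming from CD14. The list was uneven: over all libraries together CD14 had 18817 counts, CD68 11419, AIF1 9218, CSF1R 467, ITGAM 156 and MRC1 34, while MARCO and C1QA had 6 each, PTPRC 9, TYROBP 1, C1QB 1 and CD163 0.

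TLR1 (ENSSSCG00000026583) lies on chromosome 8 at 30147588 to 30180651, minus strand, in the coordinates of the deposited table, whose pig assembly is not given in the sources used here. TLR6 (ENSSSCG00000026592) overlaps it on the same strand at 30159780 to 30180655. The exon blocks counted for these genes share 59 bases, so a read there cannot be assigned to either gene alone, and the labels do not say how such reads were counted. TLR2 (ENSSSCG00000009002) is on the same chromosome at 75416028 to 75428330, minus strand. TLR3 (ENSSSCG00000015801) is on chromosome 15 at 46966079 to 46978023 and TLR4 (ENSSSCG00000005503) on chromosome 1 at 258044435 to 258055522, both on the plus strand. TLR5 (ENSSSCG00000010885) is on chromosome 10 at 19390205 to 19392774, minus strand. The TLR5 model was the shortest of the 6, with 2568 counted bases in 2 blocks that filled nearly all of its 2570-base span, whereas TLR3 was counted over 11 blocks, TLR1 and TLR2 over 4 each, TLR4 over 3 and TLR6 over 2. The RefSeq annotation gives the pig TLR5 gene a length of 22359 bases, while the spans of the other 5 members were near or above their RefSeq lengths. Reads of TLR5 transcripts outside these 2 blocks were not counted for the gene.

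Averaged over all 24 libraries, TLR4 was the most abundant of the 6. TLR5, the receptor of the stimulus, was the least abundant as counted over its short model. Levels were compared between genes per length, as RPKM, the CPM divided by the kilobases of counted exon, over all 24 libraries. TLR4 averaged 14.5 ± 3.35 RPKM (SD, n = 24), above 71.3% of the genes tested, and TLR3 averaged 6.15 ± 2.05 RPKM, above 49.4%. TLR1 followed with 1.48 ± 0.608 RPKM, TLR6 with 0.983 ± 0.230 RPKM, TLR2 with 0.561 ± 0.330 RPKM and TLR5 with 0.509 ± 0.261 RPKM. TLR4 exceeded TLR3, and TLR3 exceeded TLR1, in 24 of 24 libraries. The order below them was less regular: TLR1 exceeded TLR6 in 22 of 24 libraries, TLR6 exceeded TLR2 in 19, and TLR2 exceeded TLR5 in 13. The order of TLR2 and TLR5 turned with time. At 2 h TLR2 exceeded TLR5 in every library except replicate 3 with PBS. At 24 h TLR5 exceeded TLR2 in every library except replicate 1 with flagellin and replicate 1 with SB203580 plus flagellin.

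**Figure D1:**
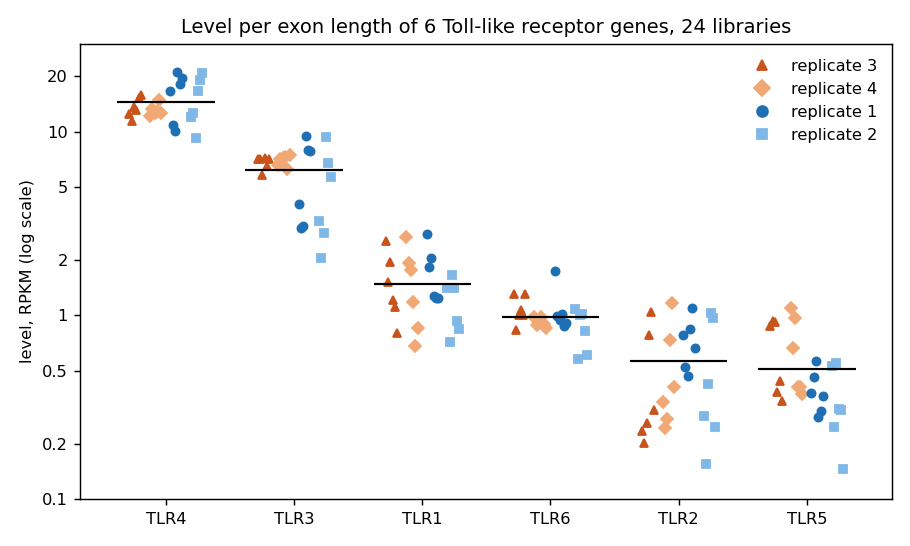
Levels of the 6 receptor genes per length of counted exon (RPKM, logarithmic axis); each point is 1 of 24 libraries, with marker and colour showing the replicate number, and the bar is the mean. TLR4 (mean 14.5 RPKM) lies above TLR3 (6.15 RPKM) in 24 of 24 libraries, and TLR5 (0.509 RPKM) overlaps TLR2 (0.561 RPKM).

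TLR5 was low but detected in every library, with 12 to 101 counts, above the 3 counts that an observed 0 still permits. Its lowest value, 12 counts in replicate 2 of the PBS cultures at 2 h, had an exact 95% Poisson interval of 6.20 to 21.0 counts, which covers counting error only. In replicates 1 to 4 at 24 h, TLR5 was at 0.969, 1.36, 2.24 and 2.82 CPM with SB203580 plus flagellin, at 1.19, 0.634, 2.38 and 1.70 CPM with flagellin, and at 1.44, 1.42, 2.35 and 2.49 CPM with PBS. At 2 h it was at 0.721, 0.790, 0.983 and 1.04 CPM with SB203580 plus flagellin, at 0.769, 0.781, 1.12 and 1.05 CPM with flagellin, and at 0.930, 0.375, 0.875 and 0.958 CPM with PBS. The treatments overlapped at each time, while the libraries at 24 h were mostly higher than those at 2 h, and at 24 h replicates 3 and 4 lay above replicates 1 and 2 in each of the 3 treatments.

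Between flagellin and PBS, TLR5 did not pass the threshold of 0.05 at either time in the test used, edgeR's quasi-likelihood test over all groups with Benjamini-Hochberg adjustment over all tested genes. At 2 h the log2 fold change of flagellin over PBS was 0.25 (standard error, SE, 0.390, adjusted p = 1.00), with 3 of 4 same-numbered libraries higher. At 24 h it was -0.38 (SE 0.380, adjusted p = 1.00), with 3 of 4 lower. Counting error is part of these standard errors at 12 to 101 counts a library.

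TLR2, the lipoprotein receptor, was the member with the largest difference between flagellin and PBS at 2 h. Its levels were 5.26, 4.63, 5.00 and 5.61 CPM in replicates 1 to 4 with flagellin, against 3.20, 1.19, 1.47 and 1.94 CPM with PBS. All 4 flagellin libraries lay above all 4 PBS libraries. The means were 5.12 ± 0.413 CPM with flagellin and 1.95 ± 0.888 CPM with PBS (SD, n = 4 each). The log2 fold change was 1.39 (SE 0.393), which did not pass the threshold (edgeR adjusted p = 0.267, unadjusted p = 0.00196). In this comparison 0 of 6 members were called, where 0.325% of all genes were. The list of macrophage and monocyte markers summed to 37.9 to 71.3 CPM with flagellin, against 25.2 to 49.4 CPM with PBS. Within that list, CD14 averaged 32.7 ± 16.2 CPM with flagellin and 15.0 ± 10.9 CPM with PBS. The list without CD14 overlapped between the groups and was not higher with flagellin in most same-numbered libraries. The higher sum with flagellin thus came from CD14. The part of macrophages and monocytes in the TLR2 level was not tested.

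The call on TLR2 at 2 h changed with the terms for the replicates and with the software. With the replicate number as a block it was called (log2 fold change 1.5, edgeR adjusted p = 0.0102), as 1 of 6 members where 1.07% of genes were called. A term for the 2 replicate sets at each time also called it (1.41, edgeR adjusted p = 0.0235; 2.24% of genes called), and so did DESeq2 without a block (1.39, adjusted p = 0.0457; 0.741% of genes called). Within replicates 3 and 4 the log2 fold change was 1.63 (edgeR adjusted p = 0.00394; 1.35% of genes called) and within replicates 1 and 2 it was 1.17 (edgeR adjusted p = 0.805; 0.141% of genes called), so the direction was shared and the call was not.

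Under SB203580 the level of TLR2 at 2 h lay between the other groups. It was 4.02, 4.97, 3.74 and 3.52 CPM in replicates 1 to 4 with SB203580 plus flagellin, a mean of 4.06 ± 0.638 CPM (SD, n = 4). Against flagellin alone, 3 of 4 same-numbered libraries were lower, with a log2 fold change of -0.34 (SE 0.383, edgeR adjusted p = 1.00), and the groups overlapped. Against PBS the 4 libraries were all higher with no overlap, with a log2 fold change of 1.06 (SE 0.391, edgeR adjusted p = 0.721). These comparisons share their flagellin or PBS libraries with the one above and are not independent of it.

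At 24 h the flagellin and PBS cultures overlapped in TLR2. The levels were 3.73, 1.36, 1.13 and 1.62 CPM with SB203580 plus flagellin, 2.51, 0.746, 0.963 and 1.16 CPM with flagellin, and 2.25, 2.03, 1.24 and 1.31 CPM with PBS. The 3 groups overlapped, and replicate 1 was the highest library in each. Flagellin over PBS was at a log2 fold change of -0.34 (SE 0.393, edgeR adjusted p = 1.00).

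Within flagellin cultures, TLR2 fell to 1.35 ± 0.797 CPM at 24 h, against 5.12 ± 0.413 CPM at 2 h (SD, n = 4 each), without overlap. The log2 fold change of 24 h over 2 h was -1.92 (SE 0.400, edgeR adjusted p = 0.00508), and TLR2 was the 1 member of 6 called, where 7.90% of all genes were. It stayed called without any single library of these groups (edgeR adjusted p = 0.00142 to 0.0227), and within replicates 3 and 4 (-2.32, edgeR adjusted p = 9.60e-05; 27.2% of genes called). Within replicates 1 and 2 the same value was -1.57 (edgeR adjusted p = 0.163; 10.8% of genes called). In PBS cultures, TLR2 at 24 h over 2 h was at -0.19 (SE 0.391, edgeR adjusted p = 0.827). The difference between these changes, the interaction of flagellin with time, was -1.73 (SE 0.554, unadjusted p = 0.00528) and was not called (edgeR adjusted p = 1.00; 0.0423% of genes called; 0.0823 with the replicate block, which called 0.191% of genes).

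With SB203580 plus flagellin, TLR2 at 24 h over 2 h was at -1.05 (SE 0.390, edgeR adjusted p = 0.114), lower in 4 of 4 same-numbered libraries with overlapping groups. The replicate block made this a call (-1.21, edgeR adjusted p = 0.00729). So did leaving out replicate 1 of SB203580 plus flagellin at 24 h, whose 3.73 CPM was the highest TLR2 level at that time (-1.57, edgeR adjusted p = 0.0187). CD14, a monocyte marker as well as a co-receptor of TLR2 and TLR4, was at its highest in that library too, at 119 CPM, against 9.96 to 26.2 CPM in the other 3 libraries of the group. The whole macrophage and monocyte list summed to 151 CPM in that library and to 59.3, 55.5 and 58.3 CPM in replicates 2 to 4. Without CD14, the list was not higher in replicate 1 than in the others. The part of monocytes in the TLR2 level was not tested. In bulk RNA, fewer cells of a type and less RNA per cell cannot be told apart.

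**Figure D2:**
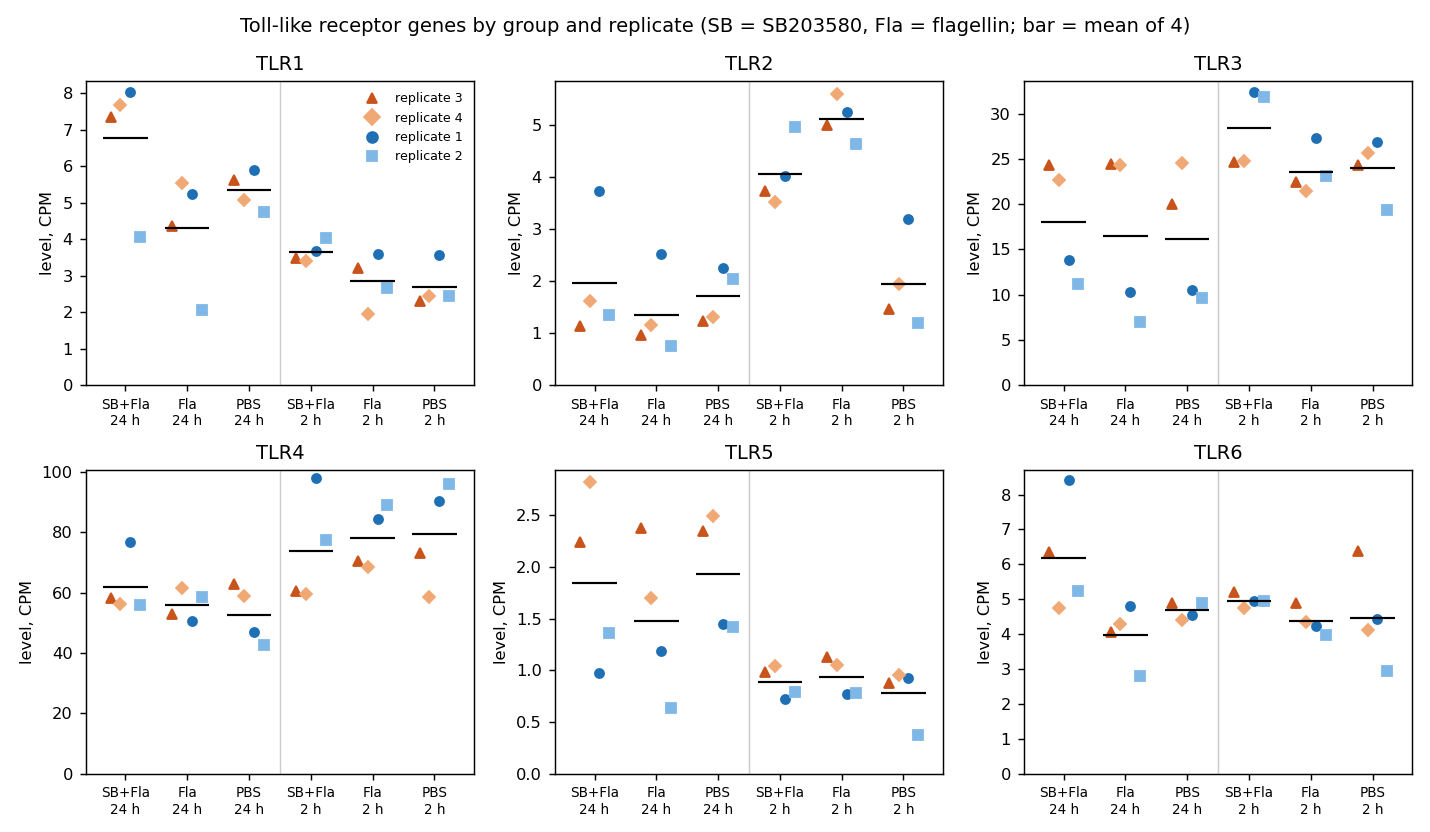
Level of each receptor gene in every library (CPM, linear axes from 0), by group, with 24 h left of 2 h; SB stands for SB203580 and Fla for flagellin, marker and colour show the replicate number, and bars are means of 4. The 4 flagellin libraries at 2 h sit between 4.63 and 5.61 CPM for TLR2, above the 4 PBS libraries at 1.19 to 3.20 CPM.

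TLR1, a partner of TLR2, had a higher mean at 24 h than at 2 h in each treatment. In replicates 1 to 4 at 24 h its levels were 8.04, 4.07, 7.35 and 7.69 CPM with SB203580 plus flagellin, 5.25, 2.05, 4.36 and 5.53 CPM with flagellin, and 5.91, 4.75, 5.63 and 5.07 CPM with PBS. At 2 h they were 3.67, 4.03, 3.48 and 3.40 CPM with SB203580 plus flagellin, 3.60, 2.67, 3.22 and 1.95 CPM with flagellin, and 3.57, 2.44, 2.31 and 2.45 CPM with PBS. The times did not overlap with PBS or with SB203580 plus flagellin, and they overlapped with flagellin through replicate 2 at 24 h.

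TLR6, the other partner of TLR2, passed the threshold in no comparison of treatments or times in the edgeR fit without a block. At 24 h its levels were 8.43, 5.23, 6.35 and 4.74 CPM with SB203580 plus flagellin, 4.80, 2.80, 4.06 and 4.28 CPM with flagellin, and 4.56, 4.90, 4.89 and 4.42 CPM with PBS. At 2 h they were 4.94, 4.94, 5.20 and 4.76 CPM with SB203580 plus flagellin, 4.24, 3.97, 4.90 and 4.36 CPM with flagellin, and 4.42, 2.94, 6.37 and 4.13 CPM with PBS. The libraries ran from 2.80 to 8.43 CPM, and the groups overlapped in each comparison of treatments or times.

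At 24 h, TLR1 and TLR6 were higher with SB203580 plus flagellin than with flagellin alone in 4 of 4 same-numbered libraries, as was TLR2. TLR1 averaged 6.79 ± 1.83 CPM with SB203580 plus flagellin and 4.30 ± 1.58 CPM with flagellin (SD, n = 4 each), at a log2 fold change of 0.66 (SE 0.265, unadjusted p = 0.0220). TLR6 averaged 6.19 ± 1.64 CPM with SB203580 plus flagellin and 3.99 ± 0.851 CPM with flagellin, a log2 fold change of 0.63 (SE 0.210, unadjusted p = 0.00683), and TLR2 was at 0.53 (SE 0.393). None was called (edgeR adjusted p = 1.00 for each, and 0.50 for TLR1, 0.345 for TLR6 and 0.831 for TLR2 with the replicate block), and the libraries of the groups overlapped for all 3. The macrophage and monocyte markers summed to 151, 59.3, 55.5 and 58.3 CPM in replicates 1 to 4 with SB203580 plus flagellin. With flagellin they summed to 54.8, 47.0, 40.8 and 41.8 CPM. Within that list, CD14 was at 119, 26.2, 9.96 and 12.5 CPM in replicates 1 to 4 with SB203580 plus flagellin. With flagellin it was at 24.4, 11.2, 8.30 and 6.30 CPM. Without CD14, the list overlapped between the groups, and most of what remained over all libraries was CD68 and AIF1. The part of macrophages and monocytes in these receptor levels was not tested. No gene of the 14172 was called in this comparison, a share of 0%, with 405 at an unadjusted p under 0.05, and DESeq2 called 1 gene. The other 3 members were at log2 fold changes of 0.12 for TLR3, 0.14 for TLR4 and 0.32 for TLR5.

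At 2 h, SB203580 plus flagellin over flagellin gave 0 calls among the 6 members, where 0.00706% of genes were called. The log2 fold changes ran from -0.34 for TLR2 to 0.35 for TLR1 (SE 0.266), with TLR3 at 0.27 (SE 0.347) and TLR6 at 0.18 (SE 0.210). TLR1, TLR3 and TLR6 were each higher in 4 of 4 same-numbered libraries, with overlapping groups. TLR4 at -0.08 and TLR5 at -0.07 lay within 1 standard error of 0.

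Flagellin left the members other than TLR2 within 1 standard error of PBS at 2 h. The log2 fold changes were 0.09 for TLR1, -0.03 for TLR3, -0.03 for TLR4 and -0.03 for TLR6, beside the 0.25 of TLR5. At 24 h they ran from -0.38 for TLR5 to 0.08 for TLR4, with TLR1 at -0.31 and TLR6 at -0.23, and 0 of 6 members were called. Of all 14172 genes, edgeR called 0 at 24 h, a share of 0%, with 112 at an unadjusted p under 0.05, and DESeq2 called 1. SB203580 plus flagellin over PBS gave 0 calls among the members at 2 h, where 0.183% of genes were called, and 0 at 24 h, where 0.00706% were. At 24 h the largest of these log2 fold changes was that of TLR6, at 0.40 (SE 0.210, edgeR adjusted p = 1.00), higher in 4 of 4 same-numbered libraries.

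**Figure D3:**
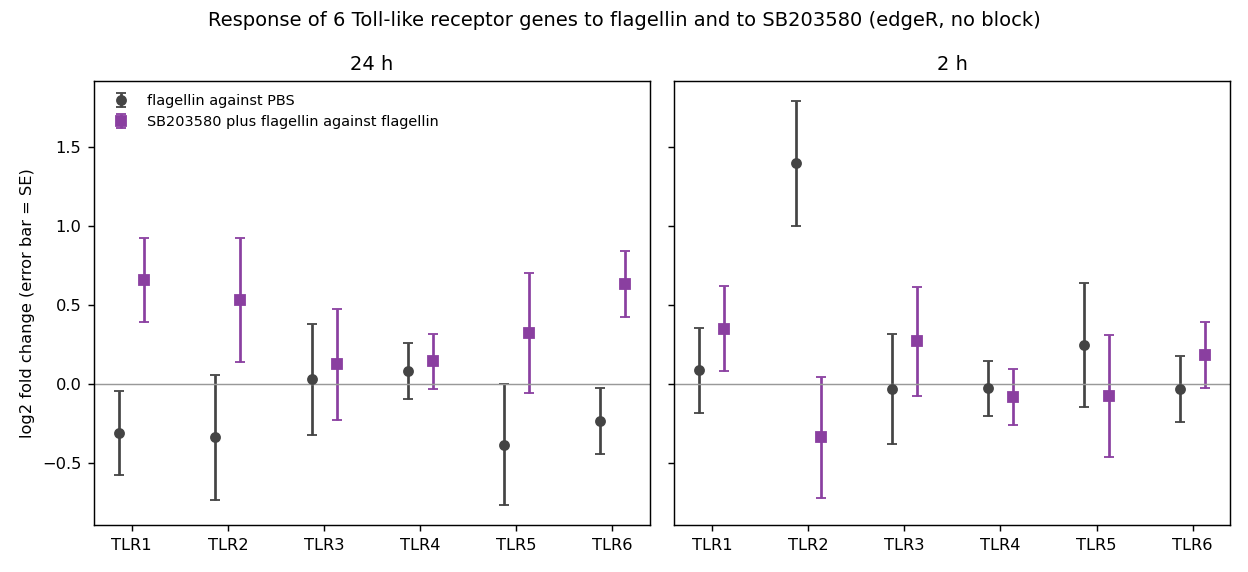
Log2 fold changes of the 6 genes from the edgeR fit without a block, at 24 h and 2 h, for flagellin over PBS (circles) and SB203580 plus flagellin over flagellin (squares); error bars are standard errors. TLR2 at 2 h stands at 1.39 for flagellin over PBS, and at 24 h TLR1 (0.66) and TLR6 (0.63) stand highest for SB203580 plus flagellin over flagellin.

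TLR4, the lipopolysaccharide receptor, had a lower mean at 24 h than at 2 h in each treatment. Its levels at 24 h were 76.8, 56.0, 58.2 and 56.3 CPM with SB203580 plus flagellin, 50.6, 58.8, 52.9 and 61.7 CPM with flagellin, and 46.8, 42.8, 62.7 and 58.8 CPM with PBS. At 2 h they were 98.0, 77.5, 60.4 and 59.6 CPM with SB203580 plus flagellin, 84.6, 89.1, 70.4 and 68.6 CPM with flagellin, and 90.4, 96.2, 73.2 and 58.7 CPM with PBS. Only the flagellin groups did not overlap between times, and at 2 h replicates 3 and 4 lay below replicates 1 and 2 in each treatment.

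TLR3, the receptor of double-stranded RNA, split by replicate set at 24 h. There its levels were 13.8, 11.1, 24.4 and 22.6 CPM in replicates 1 to 4 with SB203580 plus flagellin, 10.3, 7.01, 24.4 and 24.3 CPM with flagellin, and 10.5, 9.62, 20.0 and 24.6 CPM with PBS. At 2 h they were 32.4, 31.9, 24.7 and 24.8 CPM with SB203580 plus flagellin, 27.4, 23.1, 22.4 and 21.5 CPM with flagellin, and 26.9, 19.3, 24.3 and 25.6 CPM with PBS. The low values were the 6 libraries of replicates 1 and 2 at 24 h, and the remaining 18 libraries lay between 19.3 and 32.4 CPM.

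Of the comparisons made, those of 24 h with 2 h held the calls on members in the fit without a block. In PBS cultures, 24 h over 2 h called 3 of 6 members, where 10.2% of all genes were called. TLR5 rose to 1.93 ± 0.573 CPM at 24 h, against 0.784 ± 0.275 CPM at 2 h (SD, n = 4 each), without overlap, a log2 fold change of 1.29 (SE 0.390, edgeR adjusted p = 0.0393). TLR1 rose to 5.34 ± 0.525 CPM at 24 h, against 2.69 ± 0.588 CPM at 2 h, without overlap, a log2 fold change of 0.99 (SE 0.268, edgeR adjusted p = 0.0234). TLR4 fell to 52.8 ± 9.49 CPM at 24 h, against 79.6 ± 17.0 CPM at 2 h, a log2 fold change of -0.59 (SE 0.176, edgeR adjusted p = 0.0358), with overlap through replicates 3 and 4. TLR3 was at -0.57 (SE 0.348, edgeR adjusted p = 0.337), TLR2 at -0.19 and TLR6 at 0.07. The list for endothelium moved with time as well, to 342 to 513 CPM at 24 h, against 89.4 to 257 CPM at 2 h, without overlap. Nearly all of it was KDR, while CDH5, a defining marker of endothelium, had 6 counts over all 24 libraries. The macrophage and monocyte list was at 35.96 to 46.0 CPM at 24 h, against 25.2 to 49.4 CPM at 2 h, with overlap. The part of these cells in the receptor levels was not tested.

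Each of these 3 calls was close to the threshold and was lost without some single libraries. TLR1 was lost without PBS replicates 1 or 3 at 24 h (edgeR adjusted p = 0.0559 and 0.0554) or replicates 2, 3 or 4 at 2 h (0.0659, 0.0716 and 0.0531). TLR4 was lost without PBS replicates 1 or 2 at 24 h (0.0976 and 0.121) or replicates 1, 2 or 3 at 2 h (0.101, 0.121 and 0.0552). TLR5 was lost without PBS replicates 3 or 4 at 24 h (0.0998 and 0.0970) or replicates 1, 2, 3 or 4 at 2 h (0.0622, 0.119, 0.0745 and 0.050), and also when no count filter was used (0.0589). The signs did not change in any of them. TLR1 was at 1.17 within replicates 3 and 4 (edgeR adjusted p = 0.00534) and at 0.84 within replicates 1 and 2 (edgeR adjusted p = 0.260). TLR5 was at 1.4 within replicates 3 and 4 (edgeR adjusted p = 0.00467) and at 1.15 within replicates 1 and 2 (edgeR adjusted p = 0.139). In this comparison 24.7% of genes were called within replicates 3 and 4 and 15.3% within replicates 1 and 2.

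In cultures with SB203580 plus flagellin, 24 h over 2 h called TLR1 alone of the 6 members, where 6.88% of genes were called. TLR1 averaged 6.79 ± 1.83 CPM at 24 h and 3.65 ± 0.281 CPM at 2 h (SD, n = 4 each), without overlap, a log2 fold change of 0.90 (SE 0.266, edgeR adjusted p = 0.0464). That call was lost without SB203580 plus flagellin replicates 1, 3 or 4 at 24 h (edgeR adjusted p = 0.105, 0.0998 and 0.108) or any replicate at 2 h (0.0930, 0.0782, 0.105 and 0.107), and when no count filter was used (0.0687). TLR5 was at 1.06 (SE 0.386, edgeR adjusted p = 0.107), higher in 4 of 4 same-numbered libraries. With the replicate block, TLR5 was called (0.99, edgeR adjusted p = 0.0144), so that with TLR1 and TLR2 the block called 3 of 6 members, where 17.1% of genes were called. TLR3 was at -0.66, lower in 4 of 4 same-numbered libraries without overlap, TLR4 at -0.26 and TLR6 at 0.32, none of them called.

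In flagellin cultures, TLR1, TLR5 and TLR4 had the same signs as with PBS without passing the threshold. TLR1 was at 0.59 (SE 0.266, edgeR adjusted p = 0.199), and without flagellin replicate 2 at 24 h, whose 2.05 CPM was the lowest of its group, it was at 0.84 (edgeR adjusted p = 0.0325). TLR5 was at 0.67 (SE 0.385, edgeR adjusted p = 0.342) and TLR4 at -0.48 (SE 0.175, edgeR adjusted p = 0.101), lower in 4 of 4 same-numbered libraries. With the set term TLR4 was called (-0.48, edgeR adjusted p = 0.00587; 28.9% of genes called). TLR3 was at -0.51 and TLR6 at -0.13. No interaction of flagellin or of SB203580 with time was called for any member, so these changes were not shown to differ between treatments. For the interaction of SB203580 with time, edgeR called 0 of 14172 genes (0%), with 113 at an unadjusted p under 0.05, and DESeq2 called 0.

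The changes of TLR3 and TLR4 with time differed between the 2 replicate sets. For TLR3, the log2 ratio of 24 h to 2 h within a replicate number and treatment was -0.28 to 0.18 in replicates 3 and 4 (median -0.038) and -1.72 to -1.01 in replicates 1 and 2 (median -1.39), with 6 ratios in each set and no overlap. For TLR4 it was -0.41 to 0.0022 in replicates 3 and 4 and -1.17 to -0.35 in replicates 1 and 2, with overlap. With a term for the replicate set at each time, the difference between the sets in their change was 1.34 for TLR3 (SE 0.161, edgeR adjusted p = 3.73e-06) and 0.55 for TLR4 (SE 0.139, edgeR adjusted p = 0.00413). These were 2 of 6 members, where 35.0% of all genes were called, a similar share.

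In PBS cultures alone, TLR3 at 24 h over 2 h was at -0.16 (edgeR adjusted p = 0.316) within replicates 3 and 4 and at -1.19 (edgeR adjusted p = 0.0116) within replicates 1 and 2. TLR4 was at -0.12 (edgeR adjusted p = 0.489) within replicates 3 and 4 and at -1.04 (edgeR adjusted p = 0.00579) within replicates 1 and 2. With the set term the average change of TLR3 was called in all 3 treatments, at -0.69 with PBS, -0.68 with flagellin and -0.72 with SB203580 plus flagellin (edgeR adjusted p = 0.000931, 0.00115 and 0.000727), where 33.2%, 28.9% and 27.1% of genes were called.

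**Figure D4:**
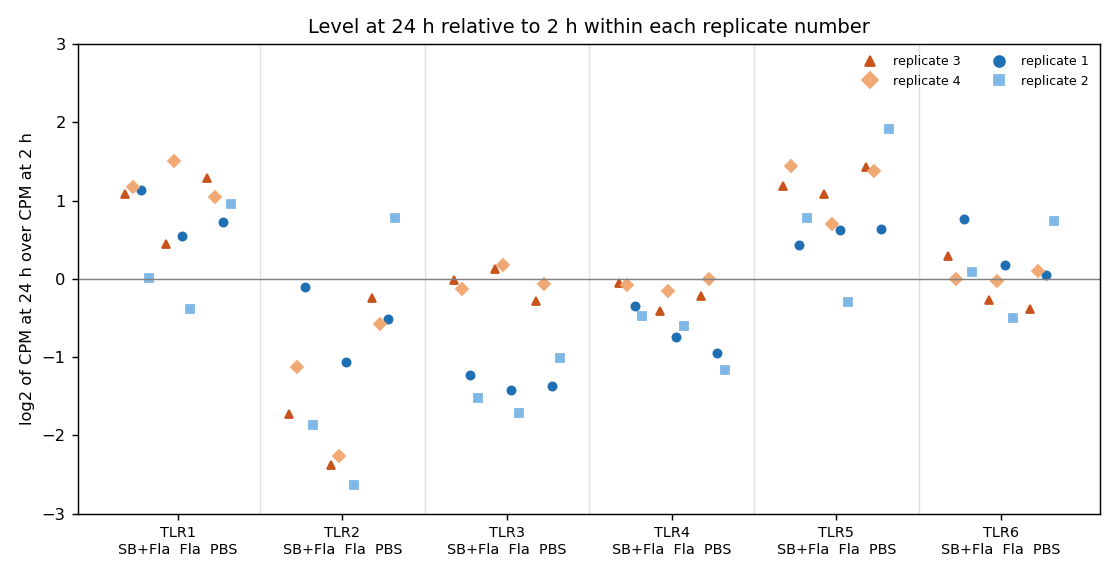
Log2 ratio of the level at 24 h to the level at 2 h, for libraries with the same replicate number and treatment; each receptor has 12 ratios, 4 for each treatment, with marker and colour showing the replicate number. For TLR3 the ratios of replicates 3 and 4 lie between -0.28 and 0.18, above those of replicates 1 and 2 at -1.72 to -1.01.

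The replicate sets also differed in level. At 24 h, replicates 3 and 4 were higher than replicates 1 and 2 in TLR3, by 1.18 on the log2 scale (SE 0.116, edgeR adjusted p = 4.32e-08), and in TLR5, by 1.00 (SE 0.188, edgeR adjusted p = 0.000116). They were lower in TLR2, at -0.76 (SE 0.274, edgeR adjusted p = 0.0204). These were 3 of 6 members, where 64.6% of all genes were called. At 2 h the sets differed in TLR4 alone, at -0.46 (SE 0.0984, edgeR adjusted p = 0.000725), where 52.0% of genes were called, and TLR5 was at 0.47 (edgeR adjusted p = 0.0547). Medians of the summed markers of several cell types differed between the sets, with ranges of the sets that overlapped in each list given here. Those of club and secretory cells summed to 477 to 853 CPM (median 619) in replicates 3 and 4 and to 528 to 2499 CPM (median 1719) in replicates 1 and 2. Those of ciliated cells had medians of 10.5 CPM in replicates 3 and 4 and 23.8 CPM in replicates 1 and 2, and those of basal cells 839 CPM in replicates 3 and 4 and 632 CPM in replicates 1 and 2. The list for endothelium, nearly all of it KDR, had medians of 293 CPM in replicates 3 and 4 and 160 CPM in replicates 1 and 2. That for macrophages and monocytes had medians of 39.6 CPM in replicates 3 and 4 and 56.1 CPM in replicates 1 and 2. Within it, CD14 was higher in replicates 1 and 2 than in replicates 3 and 4 in every group. The list without CD14 did not split this way. The part of these cells in the level of any receptor was not tested.

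A response to flagellin was measured in 2 genes outside the receptor family. TNFAIP3, which encodes the A20 brake on NF-kB signalling, had 1454, 1455, 1179.6 and 940.5 CPM in replicates 1 to 4 with flagellin at 2 h, against 152, 151, 109 and 116 CPM with PBS. Its log2 fold change was 3.25 (SE 0.384, edgeR adjusted p = 6.96e-05). CXCL8, a neutrophil-attracting chemokine, had 608, 617, 754 and 638 CPM with flagellin at 2 h, against 51.4, 46.1, 22.6 and 13.2 CPM with PBS, a log2 fold change of 4.30 (SE 0.746, edgeR adjusted p = 0.00943). Both genes were picked as gauges of the stimulus with earlier results known.

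Of 29 other genes of the receptor pathway in 4 lists, 24 were tested. With flagellin at 2 h, 1 of the 24 rose and 0 fell, where 0.325% of all genes were called. The 1 was TNFAIP3, and the median log2 fold change was 0.10, beside -0.0027 for all genes. With the replicate block, where 1.07% of genes were called, 3 rose: TNFAIP3, CD14 (1.26, edgeR adjusted p = 0.0230) and TICAM1 (0.61, edgeR adjusted p = 0.0465). CD14 had 53.0, 38.5, 21.5 and 18 CPM with flagellin at 2 h, against 30.9, 13.2, 6.97 and 8.77 CPM with PBS, higher in each replicate number. At 24 h, flagellin over PBS called 0 of the 24 (0% of all genes), and SB203580 plus flagellin over flagellin called 0 at 24 h (0% of all genes) and 0 at 2 h (0.00706%). SB203580 plus flagellin over PBS at 2 h raised TNFAIP3 alone of the 24 (2.34, edgeR adjusted p = 0.00688; 0.183% of genes called).

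In flagellin cultures at 24 h over 2 h, 2 of the 24 rose and 1 fell, where 7.90% of genes were called. MYD88, the shared adaptor, was at 0.46 (SE 0.113, edgeR adjusted p = 0.0156) and IRAK3, a kinase-like brake on the pathway, at 0.93 (SE 0.229, edgeR adjusted p = 0.0156), while TNFAIP3 fell at -3.25 (SE 0.384, edgeR adjusted p = 2.72e-05). IRAK3 had 7.74, 8.21, 5.59 and 6.38 CPM at 24 h, against 2.71, 3.43, 4.56 and 3.96 CPM at 2 h. In PBS cultures 0 of the 24 were called, where 10.2% of genes were, and 5 with the replicate block, where 22.5% of genes were called, a similar share: MYD88, IKBKG and TAB1 rose and TNFAIP3 and HSP90B1 fell. With SB203580 plus flagellin, TNFAIP3 alone of the 24 was called and fell (-2.39, edgeR adjusted p = 0.000558; 6.88% of genes called). The interaction of flagellin with time was called for 0 of the 24, where 0.0423% of genes were called. Between the replicate sets, the change with time differed for 9 of the 24, where 35.0% of all genes were called, a similar share. Among the 9 were CNPY3, a chaperone of Toll-like receptors (1.68, SE 0.148, edgeR adjusted p = 1.02e-07), and IRAK2, a kinase of the pathway (-2.20, SE 0.384, edgeR adjusted p = 0.000231).

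The genes most like each receptor were taken by Pearson's r of log2(CPM + 0.5) over the 24 libraries, which share the split by replicate set and by time. For TLR2 they were LIF, IFNGR1 and TNFAIP2, each with r = 0.91. For TLR5 they were FAM83E (r = 0.94), C2orf49 (0.93) and PRPF40B (0.92), for TLR3 CEP41 (0.94), TARBP1 (0.93) and HADH (0.93), and for TLR4 ENSA (0.90), GYG1 (0.89) and SETD4 (0.89). TLR1 was most like RAB11FIP4 (0.87), and TLR6 most like RETREG1 (0.80), the lowest of these leading values. After the mean of each replicate set at each time was subtracted, TLR2 was most like TBC1D2B (0.92), IFNGR2 (0.91) and FOXA1 (0.91), and TLR5 most like CD200, ARMCX3 and SORL1 (0.85 each). Among the receptors themselves, TLR1 and TLR5 had r = 0.69 and TLR4 and TLR5 had r = -0.61.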

How the data were processed

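The submitters deposited 1 table of raw read counts per gene for all 24 libraries of paired-end RNA-seq, with exon coordinates and counted length, as featureCounts writes it per the file headers. The submitters' processing notes name Subread 1.4.6-p1, featureCounts, STAR 2.4.0a and a mouse build, GRCm38, although the identifiers in the table are those of pig genes. Neither the pig build of the coordinates nor whether counting used strand is stated in these sources. The table held 31868 features, of which 25880 were pig genes. The other 5988 were left out, and they took at most 0.00514% of a library's counts.

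Counts were scaled with TMM factors (0.836 to 1.07), filtered with filterByExpr and tested with edgeR 4.0.16 (R 4.3.3; quasi-likelihood F test, robust) with 1 term per group over all 24 libraries and 18 residual degrees of freedom. P-values were adjusted by Benjamini-Hochberg over 14172 genes, and a gene was called at an adjusted p under 0.05. Standard errors were computed as the absolute log2 fold change over the root of F. CPM used TMM-scaled totals, and RPKM divided these by the counted kilobases. The edgeR fit without a block was tested on simulated counts for flagellin against PBS at 2 h. Those counts had no split by replicate set and less spread than the data, and the other fits were not tested in this way.

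Same-numbered libraries of different groups deviated together (60 of 60 pairs had a correlation over 0.1, from 0.211 to 0.797). Such libraries also share a replicate set, and the split between the sets alone can make these correlations positive. The same number gave the highest correlation in 37 of 60 pairs, so pairing by number within a set was not settled. A replicate block was fitted as an alternative. The other alternatives were a term for the replicate set (3 and 4 against 1 and 2) at each time, DESeq2 1.42.0, its size factors in edgeR (RLE), no count filter, each library left out and, chosen after seeing the data, each replicate set alone.

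The members and lists were chosen with earlier results of these data known. The 6 receptors were named in every comparison, other genes only where they were in a list and passed the threshold, as gauges, or as the 3 most like a receptor. The labels do not say which libraries of a group came from separate animals or cultures. Counts of KDM5D show at least 2 animals in each group, and p-values reflect only how these libraries vary. Intervals and count floors cover counting error only.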

Additional observations from a re-analysis of the deposited data

Results flagged for a closer look

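Among 36 sets of 4 libraries, 1 for each receptor and group, 3 held a library far from the other 3. The rule used flags about 1 set in 20 where all 4 libraries vary alike. That rate is only nominal here, as each group held libraries of different animals and the sets share libraries. TLR4 was at 76.8 CPM in replicate 1 of SB203580 plus flagellin at 24 h, against 56.0 to 58.2 CPM in the others. TLR1 was at 3.57 CPM in replicate 1 of PBS at 2 h, against 2.31 to 2.45 CPM. TLR5 was at 0.375 CPM in replicate 2 of PBS at 2 h, a value of 12 counts, against 0.875 to 0.958 CPM.

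The change with time differed between replicates 3 and 4 and replicates 1 and 2 for TLR3, by 1.34 on the log2 scale, and for TLR4, by 0.55, in a test of the difference itself. The same test called 35.0% of all genes, so the 2 of 6 receptors are near the share over all genes. Different animals gave these sets; what set them apart was not tested.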

How the results depend on the processing

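None of the alternatives tried turned the direction of a receptor call of the fit reported. The number of genes called moved with terms for the replicates and, without such a term, with DESeq2. With the replicate block, the term for the replicate set and DESeq2, it was 151, 318 and 105 for flagellin against PBS at 2 h (46 in the fit reported), 5, 53 and 13 for SB203580 plus flagellin against flagellin at 2 h (1), 114, 281 and 77 for SB203580 plus flagellin against PBS at 2 h (26), 9, 65 and 10 for it at 24 h (1), and 27, 38 and 10 for the interaction of flagellin with time (6). For 24 h against 2 h, the block and the set term gave 3183 and 4700 with PBS (1440), 2664 and 4095 with flagellin (1120), and 2422 and 3838 with SB203580 plus flagellin (975), for which DESeq2 gave 1486. At 24 h, DESeq2 called 1 gene for flagellin against PBS and 1 for SB203580 plus flagellin against flagellin, and the set term called 13 for that comparison, where the fit reported called 0.

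The number of receptors called was 1 for flagellin against PBS at 2 h with the replicate block, the set term and DESeq2 (0 in the fit reported). For 24 h against 2 h it was 3 with flagellin under the set term (1), and with SB203580 plus flagellin 3 under the block, 4 under the set term and 0 without a count filter (1). The replicate block turned 2 directions near 0, both of TLR3, to 0.0041 for flagellin against PBS at 2 h and to -0.0030 for the interaction of flagellin with time. It changed no other call on a receptor than those of TLR2 and TLR5 given above.

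The set term turned TLR3 for flagellin against PBS at 24 h to -0.028. Within replicates 3 and 4 alone, directions turned for flagellin against PBS for TLR4 (0.078 at 2 h, -0.088 at 24 h), for SB203580 plus flagellin against flagellin at 24 h for TLR3 (-0.064) and TLR4 (-0.012), for SB203580 plus flagellin against PBS for TLR3 (-0.021) and TLR6 (-0.079) at 2 h and TLR4 (-0.10) and TLR5 (0.047) at 24 h, for 24 h against 2 h for TLR6 with PBS (-0.17) and TLR3 with flagellin (0.15), and for the interaction of flagellin with time for TLR4 (-0.17) and TLR6 (0.016). Within replicates 1 and 2 alone they turned for TLR3 (0.12) and TLR6 (0.16) for flagellin against PBS at 2 h, TLR3 at 24 h (-0.23), TLR4 for SB203580 plus flagellin against flagellin at 2 h (0.0060), and TLR3 for the interactions of flagellin (-0.35) and SB203580 (0.18) with time. None of these values was called in the fit reported; the cause was not tested.

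With 1 library left out, the number of receptors called for 24 h against 2 h was 0 to 2 with PBS, 1 to 2 with flagellin and 0 to 1 with SB203580 plus flagellin. Genes called ranged over 835 to 1319 with PBS, 710 to 1029 with flagellin and 625 to 836 with SB203580 plus flagellin for the same times, 15 to 42 for flagellin against PBS at 2 h, 1 to 2 for SB203580 plus flagellin against flagellin at 2 h, and 10 to 25 at 2 h and 0 to 2 at 24 h for SB203580 plus flagellin against PBS. Uncalled log2 fold changes crossed 0 in these ranges. For flagellin against PBS they were -0.042 to 0.25 for TLR1, -0.12 to 0.030 for TLR3, -0.15 to 0.077 for TLR4 and -0.19 to 0.19 for TLR6 at 2 h, and -0.22 to 0.31 for TLR3 and -0.0049 to 0.18 for TLR4 at 24 h. For SB203580 plus flagellin against flagellin they were -0.25 to 0.0086 for TLR4 and -0.16 to 0.034 for TLR5 at 2 h, and -0.14 to 0.38 for TLR3 at 24 h. For SB203580 plus flagellin against PBS they were -0.059 to 0.29 for TLR5 and -0.0048 to 0.37 for TLR6 at 2 h, and -0.32 to 0.38 for TLR2, -0.034 to 0.43 for TLR3 and -0.34 to 0.15 for TLR5 at 24 h. For 24 h against 2 h they were -0.37 to 0.15 for TLR2 and -0.085 to 0.29 for TLR6 with PBS, and -0.23 to 0.019 for TLR6 with flagellin. For TLR3 the interaction with time was -0.19 to 0.34 for flagellin and -0.41 to 0.11 for SB203580.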

Other observations

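The other receptors of the family were near or under detection. TLR7 had 2 counts, TLR8 5, TLR9 24 and TLR10 85 over all 24 libraries together, and none passed the count filter. TLR7 shares 5124 exon bases with an unnamed neighbouring gene model, so reads of these cannot be assigned to it alone. The highest TLR10 value was 15 counts, in replicate 1 of SB203580 plus flagellin at 24 h.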
